A study of Saccharomyces cerevisiae with 15 samples.

Results

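The data described here compare the yeast mutant rpb2-10 with its wild type of the same mating type. They are 6 of the 15 Affymetrix Yeast Genome 2.0 arrays of a study of RNA polymerase II mutants in Saccharomyces cerevisiae, and the members were taken by their strain labels, 3 arrays of WT1A and 3 of rpb2-10, with 5449 genes measured on each. By their labels both strains are MATa and of the W303 background and carry RAD5. The labels also give both the marker alleles ura3-1, trp1-1, his3-11,15, can1-100 and ade2-1 and the leu2 allele usual in W303. The RNA levels of HIS3 and the genes beside it nevertheless differed between the strains, as given below, and the marker genotypes were not tested. WT1A is strain W303-1AR5 and rpb2-10 is strain WRP2, which differs by its label in the rpb2-10 allele. Cultures were in mid-log growth in rich medium, given as YPAD in the growth protocol and as YPD in the series design, with no temperature or added drug stated. Each genotype is represented by 1 strain, so an effect of the allele and of any other difference between the strains cannot be told apart. The labels call the 3 arrays of a group biological replicates.

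RNA polymerase II transcribes all messenger RNAs of the cell, and RPB2 encodes its second largest subunit, which forms the catalytic centre together with the largest subunit, encoded by RPO21. The allele rpb2-10 is known for a polymerase that arrests readily and elongates slowly on templates in vitro, and for cells that are sensitive to 6-azauracil, a drug that lowers nucleotide pools. The comparison asks which steady-state RNA levels differ when this polymerase replaces the normal form.

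Levels are log2 values as deposited, so a difference of 1 is a doubling, and a difference is always rpb2-10 minus WT1A with the standard error (SE) of the fit and n = 3 arrays per group. A gene was called higher or lower when limma's moderated test, adjusted by Benjamini-Hochberg for all 5449 genes, gave a p below 0.05. Replicate arrays correlated at r = 0.998 across genes in every pair of the same group, against 0.958 to 0.966 between groups, and the SD over replicates had a median of 0.07 in both groups. Between 98.3% and 98.7% of the genes lay above the 95th percentile of the probe sets of another species on the array, here called background. Of the markers of the other mating type, MF(ALPHA)1, which encodes alpha-factor, lay between 1.64 and 2.03 on all 6 arrays, near background, while SAG1, the alpha agglutinin, lay between 6.70 and 6.93. Of the markers of a cells, STE2, the alpha-factor receptor, lay between 10.68 and 11.37. RNA came from whole cultures, so fewer cells that express a gene and less RNA per cell cannot be told apart.

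The poly-A control probe sets, which detect Bacillus subtilis transcripts, were at a mean of 4.32, 4.50 and 4.50 on the WT1A arrays and 4.85, 4.96 and 4.93 on the rpb2-10 arrays. The groups did not overlap, and the difference was 0.476 for the 36 of 39 probe sets above background, each of which was higher in rpb2-10. The hybridization controls overlapped between the groups, with a mean difference of 0.157. Whether poly-A controls were added to the RNA in equal amounts is not given in the sources used here. Scaled to them, every difference would be lower by 0.476 and the median gene would lie at −0.52 in place of −0.05, so higher and lower below are relative to the other genes on the array, and the part of this shift in the results was not tested.

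RPB2 itself was not called. It read 10.37, 10.27 and 10.32 in WT1A and 10.28, 10.26 and 10.42 in rpb2-10, a difference of 0.00 ± 0.06 (95% confidence interval −0.13 to 0.14, adjusted p = 0.956), and the arrays of the groups overlapped. The probes read RNA level and not the base changes of the allele, so this does not check the genotype. RPO21 was at 7.93, 7.95 and 7.86 in WT1A and 8.0, 7.99 and 8.20 in rpb2-10, a difference of 0.15 ± 0.07 that was not called (adjusted p = 0.073), although the arrays of the groups did not overlap.

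Most genes differed between the strains, mainly by little. Of the 5449 genes, 3877 (71.2%) were called, 1745 (32.0%) higher and 2132 (39.1%) lower in rpb2-10, and 4004 had an unadjusted p below 0.05. The median absolute difference of a called gene was 0.416, and 819 called genes differed by less than 0.25. A difference of at least 1 was called for 352 genes (6.46%), of which 115 (2.11%) were higher and 237 (4.35%) lower, and 60 genes differed by at least 2, with 17 higher and 43 lower. The 3 arrays of rpb2-10 all lay on 1 side of the 3 WT1A arrays for 76.1% of the genes. The larger side depended on the scaling. After centring each array on its median 2033 genes were higher and 1854 lower, and scaled to the poly-A controls 364 were higher and 4128 lower, so that the share of called genes that were higher was 45.0% as deposited, 52.3% after centring and 8.1% on the poly-A scale. The plot of difference against level shows the spread around 0 and the long tail of lower genes at low levels.

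**Figure D1:**
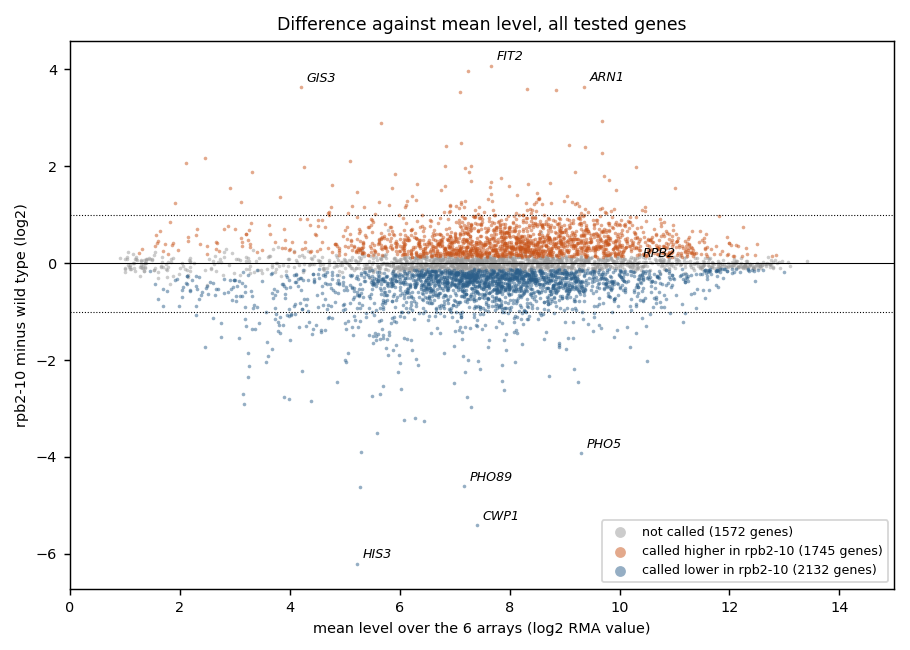
Difference between rpb2-10 and WT1A (log2) against the mean level over the 6 arrays (log2 RMA value) for 5449 genes, with 1 point per gene coloured by its call and dotted lines at −1 and 1. Calls of both directions occur over nearly the whole range of levels, and HIS3 at −6.20 and FIT2 at 4.07 are the extremes.

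The genes with the greatest rise were led by iron-uptake genes. FIT2, a cell wall mannoprotein that helps retain iron-carrying siderophores, was at 5.73, 5.47 and 5.66 in WT1A and 9.92, 9.48 and 9.69 in rpb2-10. It rose by 4.07 ± 0.11 (16.8-fold, adjusted p = 2.55e-08), with no overlap between the groups. HBN1, a protein related to bacterial nitroreductases, was at 5.37, 5.19 and 5.25 in WT1A and 9.31, 9.14 and 9.25 in rpb2-10, a rise of 3.96 ± 0.07 (adjusted p = 1.26e-09). Both were low in all WT1A arrays and high in all rpb2-10 arrays. GIS3, whose function is not known, was close to background in WT1A at 2.08, 2.38 and 2.72 and reached 5.98, 6.05 and 6.05 in rpb2-10 (3.63 ± 0.13). YOR389W, of unknown function, rose by 3.52 ± 0.05. YPL277C, a paralog of YOR389W, and its neighbour YPL278C, both read by probes shared with other sequences, differed by 3.58 ± 0.05 and 3.56 ± 0.05, so their rises cannot be separated from those of similar genes.

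Other genes among the 15 highest had different roles. CBT1, which acts in the processing of a mitochondrial mRNA, rose by 2.48 ± 0.06, from 5.78, 5.90 and 5.92 to 8.41, 8.35 and 8.30. AQY2, an aquaporin, rose by 2.26 ± 0.10. YOR072W-B, a short gene read by shared probes, differed by 2.42 ± 0.10. IMD2, an IMP dehydrogenase of guanine nucleotide synthesis, was at 8.22, 8.02 and 8.29 in WT1A and 10.60, 10.54 and 10.55 in rpb2-10 (2.39 ± 0.07, adjusted p = 4.84e-08). Its probe set shares probes with other sequences, and IMD2 has closely related copies, so this rise is uncertain as to the copy. IMD2 was the 1 member of 39 nucleotide synthesis genes that rose by at least 1.

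The genes with the greatest fall were of mixed roles. HIS3, which encodes an enzyme of histidine synthesis, had the lowest difference of all 5449 genes, at 1.84, 2.62 and 1.91 in rpb2-10 against 8.32, 8.61 and 8.03 in WT1A. It fell by 6.20 ± 0.21 (73.6-fold, adjusted p = 9.63e-08), and 1 of its 3 rpb2-10 arrays was at or under background. CWP1, a cell wall mannoprotein, was at 10.05, 9.98 and 10.33 in WT1A and 4.70, 4.68 and 4.74 in rpb2-10, and fell by 5.41 ± 0.09 (adjusted p = 1.26e-09). PHO89, a sodium-coupled phosphate transporter, was at 9.42, 9.35 and 9.65 and 4.87, 4.82 and 4.92, and fell by 4.60 ± 0.08. In all 3 genes the groups were far apart and every rpb2-10 array was low.

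PHO5, the secreted acid phosphatase, was at 11.21, 11.26 and 11.31 in WT1A and 7.22, 7.68 and 7.12 in rpb2-10, a fall of 3.92 ± 0.13. OPT2, an oligopeptide transporter, fell by 3.50 ± 0.07, and STP4, a zinc finger protein, by 3.27 ± 0.08. CYC7, an isoform of cytochrome c, was at 7.75, 7.81 and 7.55 in WT1A and at 4.0, 4.43 and 4.99 in rpb2-10, a fall of 3.23 ± 0.21 with the rpb2-10 arrays spread over almost 1 unit. PIR3, a wall protein with internal repeats, fell by 3.19 ± 0.14. YDL241W and YOL014W, of unknown function, fell by 4.62 ± 0.08 and 3.91 ± 0.23. YOL014W was at 3.02, 4.01 and 3.03 in rpb2-10, with 1 array above the other two. HXT7, a hexose transporter read by shared probes, differed by −2.96 ± 0.07, and DDI3, also with shared probes, by −2.77 ± 0.08. BSC1 was at 4.84, 4.67 and 4.39 in WT1A and at or under background on 2 of 3 rpb2-10 arrays, so the size of its fall was not measured. YHR022C fell by 2.84 ± 0.07, and RRT5 fell by 2.81 ± 0.10. The plot of array levels shows that no array of either group entered the range of the other for these genes, as the rule that chose them requires.

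**Figure D2:**
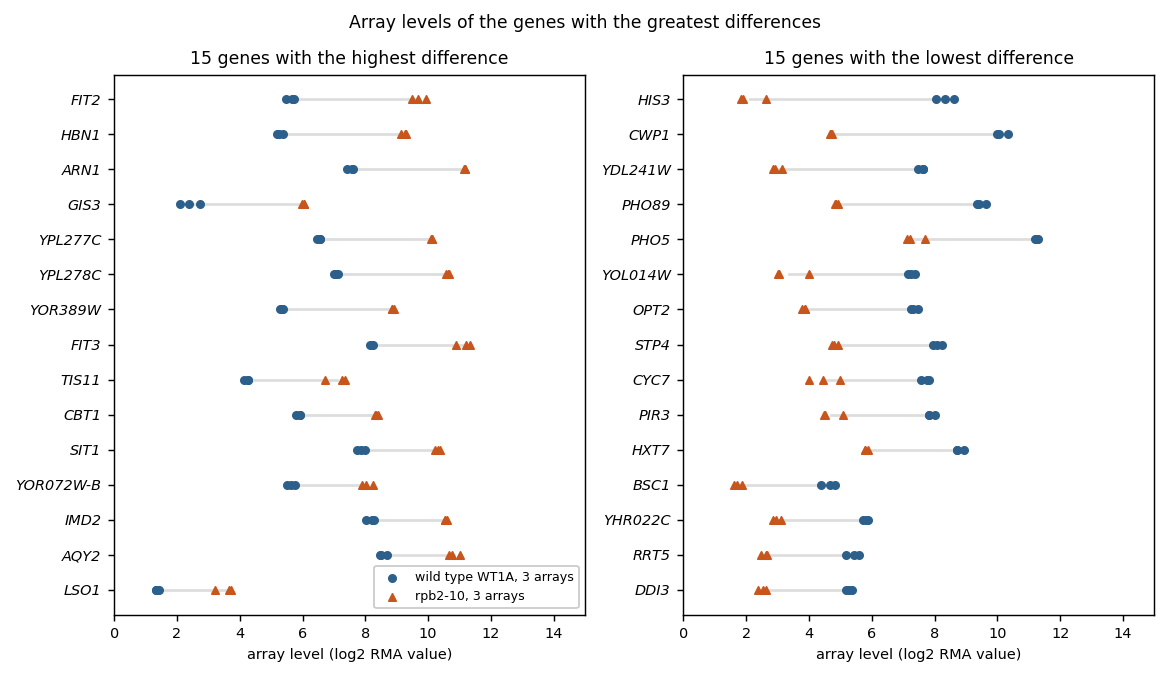
Array levels (log2 RMA value) of the 15 genes with the highest and the 15 with the lowest difference among called genes, with 3 circles for WT1A and 3 triangles for rpb2-10 on each line. The 2 groups do not overlap for any of these 30 genes.

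The iron-uptake list was higher in rpb2-10. Budding yeast takes up iron through reductases and an oxidase-permease pair at the plasma membrane and through transporters for siderophores, and the activators Aft1 and Aft2 turn these genes on when iron is low. Of the 19 genes measured, 16 were called higher and 2 lower, where 32.0% and 39.1% of all genes were, and the median difference was 0.96 beside −0.05 over all genes. The rise was at least 1 for 9 of them.

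All 4 siderophore transporters rose. ARN1 was at 7.62, 7.56 and 7.42 in WT1A and 11.18, 11.14 and 11.18 in rpb2-10, a rise of 3.64 ± 0.06 (adjusted p = 1.26e-09). SIT1 was at 7.98, 7.87 and 7.73 and 10.38, 10.20 and 10.32, a rise of 2.44 ± 0.07. ARN2 rose by 1.41 ± 0.09 and ENB1 by 0.80 ± 0.10. Arrays of the groups did not overlap for ARN1, SIT1 or ARN2. FIT3, a mannoprotein like FIT2, rose by 2.94 ± 0.10 and FIT1, the third such protein, by 0.43 ± 0.08. The surface reductases were less uniform. FRE1 and FRE2 rose by 0.60 ± 0.12 and 0.26 ± 0.09, FRE4 by 0.57 ± 0.08 and FRE6, a vacuolar reductase, by 0.93 ± 0.06, while FRE3 at −0.09 ± 0.09 was not called. FRE5 was at or under background on all 3 WT1A arrays and above it on all 3 rpb2-10 arrays, so its rise was at least 2.58-fold (adjusted p = 3.49e-06).

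High-affinity uptake uses the oxidase Fet3 with the permease Ftr1, and Fet3 receives copper through Ccc2 and Atx1. FET3 was at 10.24, 10.24 and 10.24 in WT1A and 11.76, 11.81 and 11.78 in rpb2-10 (1.55 ± 0.04), and FTR1 rose by 0.96 ± 0.08. CCC2 rose by 1.44 ± 0.07 and ATX1 by 1.17 ± 0.10. The 2 that fell were the transporters FET4, of low affinity for iron, and SMF1, which carries manganese, at −0.97 ± 0.07 and −1.59 ± 0.07.

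Intracellular iron genes were split between both directions. Of 30 genes, 11 (36.7%) were called higher and 13 (43.3%) lower, near the 32.0% and 39.1% of all genes, and the median was −0.02. TIS11, an RNA-binding protein that speeds decay of mRNAs for iron-using proteins when iron is low, was at 4.26, 4.26 and 4.13 in WT1A and 7.36, 6.71 and 7.25 in rpb2-10 (2.89 ± 0.15, adjusted p = 7.85e-07). LSO1, a small protein related to Lso2 and induced by low iron, was at or under background on the 3 WT1A arrays and its rise was at least 3.37-fold (adjusted p = 1.16e-06). SMF3, which exports iron from the vacuole, rose by 1.13 ± 0.05, and FTH1 and FET5, which act together in that export, by 0.87 ± 0.05 and 0.59 ± 0.05. COT1, a vacuolar metal transporter, rose by 0.67 ± 0.06, and ACO1, the iron-sulphur enzyme aconitase, by 0.53 ± 0.08. The 3 strongest rises were TIS11, LSO1 and SMF3.

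Genes that use or store iron fell in several cases. BIO5, a transporter of a biotin precursor, was at −1.58 ± 0.11. ISU1 and ISU2, scaffolds of iron-sulphur cluster assembly, were at −1.10 ± 0.07 and −0.58 ± 0.11, and ISA1, which helps that assembly, at −0.62 ± 0.05, while its partner ISA2 rose by 0.28 ± 0.06. HMX1, a heme oxygenase that frees iron, fell by 1.08 ± 0.07, CCC1, which moves iron into the vacuole, by 0.49 ± 0.05, and MRS3, a mitochondrial iron carrier, by 0.79 ± 0.06, while MRS4 at 0.06 ± 0.05 was not called. Of the activators, AFT2 fell by 0.72 ± 0.06 and AFT1 at −0.16 ± 0.07 was not called.

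Copper and zinc genes showed no common direction. Of 11 copper genes 5 were higher and 3 lower, where 32.0% and 39.1% of all genes were. CTR2, a vacuolar copper transporter, was at 0.81 ± 0.06, and CTR3, a high-affinity copper transporter, at −0.56 ± 0.12. CCS1, the copper chaperone of superoxide dismutase, rose by 0.75 ± 0.04, and the metallothionein CUP1-1, read by shared probes, by 0.74 ± 0.05. CTR1, the other high-affinity copper transporter, rose by 0.48 ± 0.14 and SOD1, the copper-zinc superoxide dismutase, by 0.22 ± 0.05. CUP2, the activator of the metallothionein genes, fell by 0.45 ± 0.07 and MAC1, the activator of copper uptake genes, by 0.23 ± 0.06. Of 12 zinc genes 5 were higher and 5 lower. ZRT1, the high-affinity zinc transporter, was at 11.54, 11.53 and 11.50 in WT1A and 9.31, 9.73 and 9.45 in rpb2-10 and fell by 2.03 ± 0.10. ZRT2, the low-affinity zinc transporter, fell by 0.97 ± 0.07, ZPS1 by 1.01 ± 0.07 and the zinc-responsive activator ZAP1 by 0.62 ± 0.08, and ADH4, an alcohol dehydrogenase, by 0.52 ± 0.05. Those that rose were the vacuolar zinc transporters ZRT3 at 0.53 ± 0.05 and ZRC1 at 0.43 ± 0.05, the membrane protein gene IZH1 at 0.28 ± 0.07, DPP1, a lipid phosphatase of the vacuole, at 0.62 ± 0.07, and the subtelomeric COS8 at 0.45 ± 0.08.

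**Figure D3:**
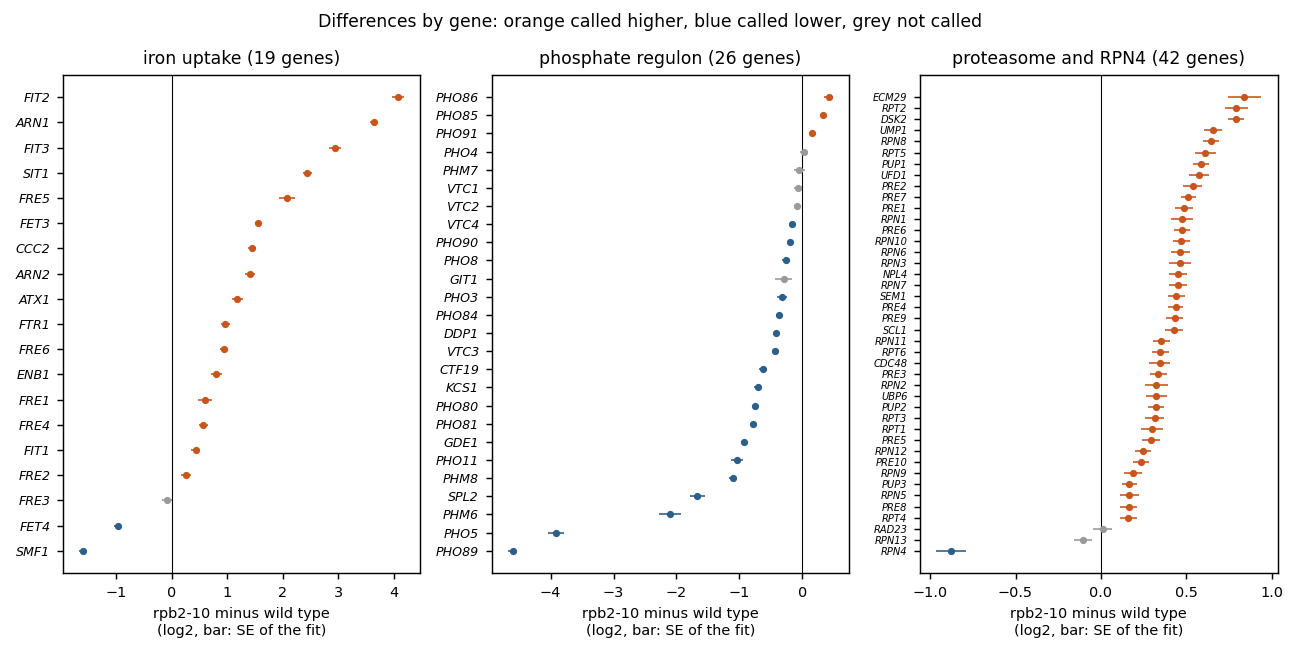
Differences (log2, bar SE of the fit) of the 19 iron-uptake genes, the 26 phosphate genes and the 42 proteasome genes, coloured by call. Most iron-uptake and proteasome genes lie above 0, with FET4, SMF1 and RPN4, all called lower, below it. FRE3 and RPN13, not called, also lie below 0. PHO89 and PHO5 stand far below the other phosphate genes. The point of FRE5 is the fitted value, although its WT1A arrays were at or under background.

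Phosphate genes were mostly lower. In yeast the activator Pho4, held inactive by the kinase Pho85 with the cyclin Pho80 and released by the inhibitor Pho81, turns on secreted phosphatases and high-affinity transporters when phosphate is scarce. Of 26 genes measured, 3 were called higher and 18 lower, where 32.0% and 39.1% of all genes were, and the median was −0.39. After PHO89 and PHO5, described above, PHM6 fell by 2.11 ± 0.17, SPL2, an inhibitor of low-affinity transport, by 1.67 ± 0.12, and PHM8, a phosphatase, by 1.11 ± 0.06. PHO11, a secreted phosphatase close to PHO12 and read by shared probes, was at −1.04 ± 0.10.

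The main high-affinity transporter PHO84 was high in both strains, at 12.66, 12.62 and 12.65 in WT1A and 12.29, 12.37 and 12.18 in rpb2-10, and fell by 0.37 ± 0.06. Of the regulators, PHO81 fell by 0.78 ± 0.05 and PHO80 by 0.75 ± 0.05, PHO85 rose by 0.33 ± 0.05 and PHO4 at 0.03 ± 0.06 was not called. The polyphosphate synthesis genes VTC3 and VTC4 fell by 0.43 ± 0.05 and 0.17 ± 0.05, while VTC1 at −0.07 ± 0.06 and VTC2 at −0.08 ± 0.05 were not called. GDE1, which splits glycerophosphocholine, fell by 0.92 ± 0.05, and the vacuolar phosphatase PHO8 by 0.26 ± 0.06. The other 2 that rose were PHO86 by 0.42 ± 0.07, which helps Pho84 leave the endoplasmic reticulum, and PHO91 by 0.16 ± 0.05, a vacuolar phosphate transporter.

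Cell wall mannoproteins were spread over the widest range of the lists with CWP1 at 1 end. Of 33 genes, 9 were called higher and 16 lower, where 32.0% and 39.1% of all genes were, and the median was −0.12. Of the Pir family, PIR3 is given above, PIR1 fell by 1.52 ± 0.07 and HSP150 by 1.21 ± 0.06, while CIS3 at −0.01 ± 0.05 was not called. UTR2, a chitin transglycosylase, fell by 1.03 ± 0.08 and CWP2, the gene next to CWP1 on the chromosome, was not called at −0.06 ± 0.05. The serine-rich TIR and DAN proteins, known from cold and from growth without oxygen, did not move together. TIR2, DAN1 and TIP1 rose by 2.0 ± 0.05, 1.89 ± 0.25 and 1.71 ± 0.06, while TIR1 and TIR4 fell by 1.02 ± 0.07 and 0.65 ± 0.09 and TIR3 at 0.15 ± 0.07 was not called. SED1, SPI1 and PST1 fell by 0.56 ± 0.05, 0.70 ± 0.10 and 0.67 ± 0.05, and HPF1 and YGP1 rose by 0.61 ± 0.07 and 0.62 ± 0.05.

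Among 45 genes of wall synthesis and integrity signalling, 10 were higher and 20 lower, where 32.0% and 39.1% of all genes were. SLT2, the MAP kinase of the cell wall integrity pathway, was at 9.75, 9.83 and 9.73 in WT1A and 8.03, 8.08 and 8.02 in rpb2-10 and fell by 1.73 ± 0.05 (adjusted p = 3.42e-08). KNH1, which acts in glucan synthesis, fell by 1.06 ± 0.08, the surface sensor WSC4 by 0.95 ± 0.14, and SCW10, a wall glucanase, rose by 0.98 ± 0.06.

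The marker genes of the W303 background differed between the strains, for which the labels give the same marker alleles. Of the 6 measured, 1 was called higher and 4 lower, where 32.0% and 39.1% of all genes were. LEU2 was at 9.64, 9.85 and 9.66 in WT1A and 8.01, 8.11 and 8.07 in rpb2-10, a fall of 1.65 ± 0.07, and CAN1, the arginine permease, was at 9.49, 9.46 and 9.27 and 7.86, 7.83 and 7.81, a fall of 1.58 ± 0.07. ADE2 fell by 0.58 ± 0.07, URA3 rose by 0.43 ± 0.05, and RAD5 at −0.04 ± 0.05 was not called. The genes next to HIS3 on the chromosome also fell. MRM1, a mitochondrial ribosomal RNA methyltransferase, was at 8.89, 8.85 and 8.76 in WT1A and 6.98, 7.16 and 7.0 in rpb2-10 (−1.79 ± 0.06), and DED1, an RNA helicase of translation initiation, at 10.36, 10.26 and 10.03 and 8.72, 8.67 and 9.03 (−1.41 ± 0.11). NFS1, next to LEU2, was at −0.01 ± 0.08 and not called, NPR2 and AVT2, on either side of CAN1, were at −0.41 ± 0.07 and −0.04 ± 0.08, the second not called, and RGA1 and AFI1, on either side of ADE2, at −0.68 ± 0.07 and −0.39 ± 0.09. GEA2 and TIM9 beside URA3 were at 0.21 ± 0.07 and −0.22 ± 0.07. Of these 9 neighbours, MRM1 and DED1 fell by more than 1 and the others differed by less than 1. TRP1 was not analysed here.

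Most genes for poor nitrogen sources were lower. They encode permeases and enzymes that yeast keeps off while good nitrogen sources such as glutamine are present. Of 36 genes measured, 3 were called higher and 26 lower, where 32.0% and 39.1% of all genes were, with 14 of them lower by at least 1, and the median was −0.91. PUT1, the first enzyme of proline use, was at 9.03, 9.25 and 9.34 in WT1A and 6.54, 6.60 and 6.64 in rpb2-10 and fell by 2.61 ± 0.08. MEP2, an ammonium permease, was at 10.49, 10.51 and 10.41 and 7.97, 8.08 and 7.99 and fell by 2.46 ± 0.05 (adjusted p = 7.98e-09). The proline permease PUT4 fell by 2.07 ± 0.08 and the allantoate permease DAL5 by 2.02 ± 0.05. The 3 that rose were CAR1 and CAR2, of arginine breakdown, at 0.21 ± 0.07 and 1.12 ± 0.08, and the vacuolar aminopeptidase APE1 at 1.33 ± 0.06.

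Amino acid synthesis genes were lower in most cases. Of 82 genes, 11 were called higher and 53 lower, where 32.0% and 39.1% of all genes were, and the median was −0.33. This list holds HIS3 and LEU2. SNO1 and SNZ1, neighbouring genes of vitamin B6 synthesis that rise in stationary cells, fell by 2.0 ± 0.08 and 1.59 ± 0.08.

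Most proteasome genes were higher, while the gene of their activator fell. Rpn4 is the transcription factor known to activate the proteasome genes, and it is itself destroyed by the proteasome. Of the 42 genes, which include RPN4, 39 were called higher, 1 lower and 2 not. Over all genes 32.0% were called higher and 39.1% lower. The list median was 0.43, while on the poly-A scale it was −0.05 with 3 higher and 10 lower. ECM29, which binds the assembled proteasome, rose by 0.84 ± 0.10, RPT2, a base ATPase, by 0.79 ± 0.07, and DSK2, which delivers ubiquitinated proteins, by 0.79 ± 0.05. RPN4 was at 8.79, 8.80 and 8.67 in WT1A and 7.86, 7.71 and 8.06 in rpb2-10, so its arrays were all low in the mutant, and it fell by 0.88 ± 0.09 (adjusted p = 2.71e-05). The 2 not called were RPN13 at −0.11 ± 0.05 and RAD23 at 0.01 ± 0.05.

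Most chaperone genes were higher as deposited. Of 41 genes, 26 were called higher and 4 lower, where 32.0% and 39.1% of all genes were, and the median was 0.32, which turned to −0.15 on the poly-A scale. SSE2, an exchange factor of Hsp70, rose by 1.67 ± 0.09, HSP42, a small chaperone, by 1.42 ± 0.15, SIS1, a partner of Hsp70, by 1.24 ± 0.10 and HSP82, a form of Hsp90, by 1.08 ± 0.10. The 4 that fell were HSP30, ERO1, BTN2 and MGE1, at −0.62 ± 0.09, −0.47 ± 0.05, −0.30 ± 0.12 and −0.15 ± 0.05. Of 38 oxidative stress genes 22 were higher and 9 lower, with a median of 0.19 that was −0.29 on the poly-A scale. TSA2, a peroxiredoxin, rose by 0.98 ± 0.06, PRX1, a mitochondrial one, by 0.84 ± 0.06 and OYE3 by 0.88 ± 0.08, while CTA1, the peroxisomal catalase, fell by 2.04 ± 0.15. General stress genes had no common direction. Of 54 genes, 16 were higher and 24 lower, and the median of −0.13 was 0.06 after further quantile normalization. DDR48 rose by 1.80 ± 0.06, and HSP12, a membrane-protecting heat shock protein, was at 8.64, 8.78 and 9.0 in WT1A and 7.50, 7.59 and 7.16 in rpb2-10 and fell by 1.39 ± 0.12. The activator gene MSN4 fell by 1.36 ± 0.09.

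Most genes that build ribosomes were lower, while those of the ribosomal proteins moved little. Of 92 ribosome biogenesis genes, 76 were called lower and none higher, where 39.1% and 32.0% of all genes were, and the median was −0.42. With all 15 arrays in 1 fit, 44 were called lower. DBP2, an RNA helicase, was at 10.75, 10.64 and 10.70 in WT1A and 9.60, 9.82 and 9.77 in rpb2-10 and fell by 0.96 ± 0.07. NOP15, NOP53 and NOG2, all of large subunit assembly, fell by 0.88 ± 0.05, 0.78 ± 0.05 and 0.77 ± 0.05. Of 127 ribosomal protein genes measured, 3 were called higher and 37 lower, and the median was −0.08. After centring, 4 were higher and 12 lower, and the number lower was 19 without replicate 1 of WT1A and 16, 23 and 23 without replicate 1, 2 or 3 of rpb2-10. The lowest, RPL22B and RPS14B, were at −0.76 ± 0.05 and −0.71 ± 0.05, and the 3 that rose were RPL15B, RPL43B and RPS17B at 0.30 ± 0.05, 0.19 ± 0.05 and 0.18 ± 0.05. Many ribosomal protein genes have near-identical copies, so the copies are uncertain. Of 66 mitochondrial ribosomal protein genes, 6 were higher and 52 lower, and the median was −0.30. MRPL38 fell by 1.11 ± 0.06 and MRPL3 by 0.94 ± 0.08.

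Subunits of RNA polymerase II differed little. Of 12 genes, 2 were called higher and 4 lower, and the median was −0.06. RPB11, which pairs with Rpb3 in the assembly of the enzyme, was at 8.47, 8.41 and 8.46 in WT1A and 8.99, 9.02 and 8.91 in rpb2-10, the largest difference of the list at 0.52 ± 0.05 (adjusted p = 2.21e-05), and RPB3 rose by 0.19 ± 0.05. The 4 that fell, RPO26, RPB5, RPB8 and RPC10, encode subunits shared with other RNA polymerases and were at −0.34 ± 0.05, −0.27 ± 0.05, −0.21 ± 0.05 and −0.19 ± 0.07. RPB10, the other shared subunit, was at −0.13 ± 0.05 and not called. Of 19 subunits of RNA polymerases I and III, 2 were higher and 13 lower, where 32.0% and 39.1% of all genes were. The median of these 19 was −0.25. RPO31 and RET1, the largest and second largest subunits of RNA polymerase III, fell by 0.56 ± 0.07 and 0.40 ± 0.06, and the 2 that rose, RPC34 and RPC17 of the same enzyme, were at 0.16 ± 0.05 and 0.26 ± 0.06.

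Elongation factors showed no common direction. Of 34 genes, 8 (23.5%) were higher, 9 (26.5%) lower and 17 not called, and the median was −0.02. Over all genes 32.0% were called higher and 39.1% lower, so both shares were smaller on this list. The number higher was 4 without replicate 2 or 3 of WT1A or replicate 1 of rpb2-10, and 5 without replicate 2 or 3 of rpb2-10. DST1, which encodes TFIIS, the factor that rescues arrested polymerase, was at 8.60, 8.50 and 8.48 in WT1A and 8.65, 8.68 and 8.66 in rpb2-10, a small rise of 0.14 ± 0.05 (adjusted p = 0.0368). SPT5 rose by 0.28 ± 0.08, while its partner SPT4 at −0.03 ± 0.05 was not called, nor was SPT6 at 0.09 ± 0.05. ELF1 rose by 0.32 ± 0.05 and SPT16, a histone chaperone, by 0.19 ± 0.07. BUR2, the cyclin of an elongation kinase, and BRE1, the ligase that attaches ubiquitin to histone H2B, had the lowest differences, at −0.75 ± 0.05 and −0.70 ± 0.07, and CTK1, a kinase of the polymerase tail, fell by 0.37 ± 0.06. Of the Paf1 complex, PAF1, CTR9, LEO1, CDC73 and RTF1 lay between −0.10 and 0.10 and none was called.

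Most genes of mRNA 3′ processing and termination were lower. Of 29 genes, 8 were higher and 18 lower, where 32.0% and 39.1% of all genes were, and the median was −0.27. REF2 and RNA14, of the cleavage and polyadenylation machinery, fell by 0.92 ± 0.05 and 0.90 ± 0.08, and the termination factors PCF11 and NRD1 by 0.74 ± 0.07 and 0.70 ± 0.06. Export genes were lower in a share near that of all genes. Of 25 genes, 5 were higher and 10 lower, with HRB1 at −0.78 ± 0.05, and HPR1, of the THO complex, at −0.53 ± 0.09. Those that rose were TEX1, SUB2 and YRA2, of the TREX complex or close to it, at 0.41 ± 0.05, 0.23 ± 0.05 and 0.36 ± 0.05, the helicase DBP5 at 0.20 ± 0.05 and CDC31 at 0.34 ± 0.05. Of 47 decay genes, 9 were higher and 22 lower, with a median of −0.12 and the lowest member at −0.63. LSM5 rose by 0.92 ± 0.05 and XRN1, the main cytoplasmic exonuclease, by 0.70 ± 0.07. Of 69 Mediator and general transcription factor genes, 19 were higher and 22 lower, with TFB5 at 0.73 ± 0.11 and TFB1 at −0.58 ± 0.06, both subunits of TFIIH.

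Intron-containing genes that encode no ribosomal protein were higher more often than not. Of the 101 genes on the list, 58 were called higher and 21 lower, against 32.0% and 39.1% of all genes, and the median was 0.22, which was −0.25 on the poly-A scale, where the median of all genes was −0.52. In a variant that was not planned beforehand, the list without ARF2 and PRP22 had 57 of 99 genes higher and 21 lower, with a median of 0.22. SCS22, BIG1 and LSB3 rose by 1.31 ± 0.08, 1.27 ± 0.07 and 1.09 ± 0.06, and SPO22, a meiotic gene, fell by 1.10 ± 0.10. The list was written from knowledge of yeast introns, and a second definition was chosen after seeing the data. It took the 110 genes, ribosomal protein genes left out, with a coding length that is not a multiple of 3, the span including the intron. The list already held 61 of the 110, so the 2 sets are not independent. Of the 110 genes, 61 were called higher and 27 lower, with a median of 0.21. Of the 49 that the list did not hold, 24 were higher and 15 lower, with a median of 0.16. Ribosomal protein genes with such a length, 54 in number, had a median of −0.07, beside −0.09 for the other 73.

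Coding length moved with the difference to a small degree. With the genes in 5 equal classes from the shortest to the longest, the share called higher was 38.5%, 35.1%, 34.3%, 27.9% and 24.3%, and the share called lower was 31.6%, 36.5%, 40.9%, 43.4% and 43.3%. The median difference went from 0.02 in the shortest class, of genes up to 660 bases, to −0.10 in the next to longest and −0.09 in the longest. Across 5446 genes Spearman's rho of length and difference was −0.110, a description across genes of the same arrays, which are not independent replicates. Mean level moved with the difference as well, from a median of −0.12 in the dimmest of 5 classes to 0.02 in the brightest, while length and level had a rho of 0.042.

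**Figure D4:**
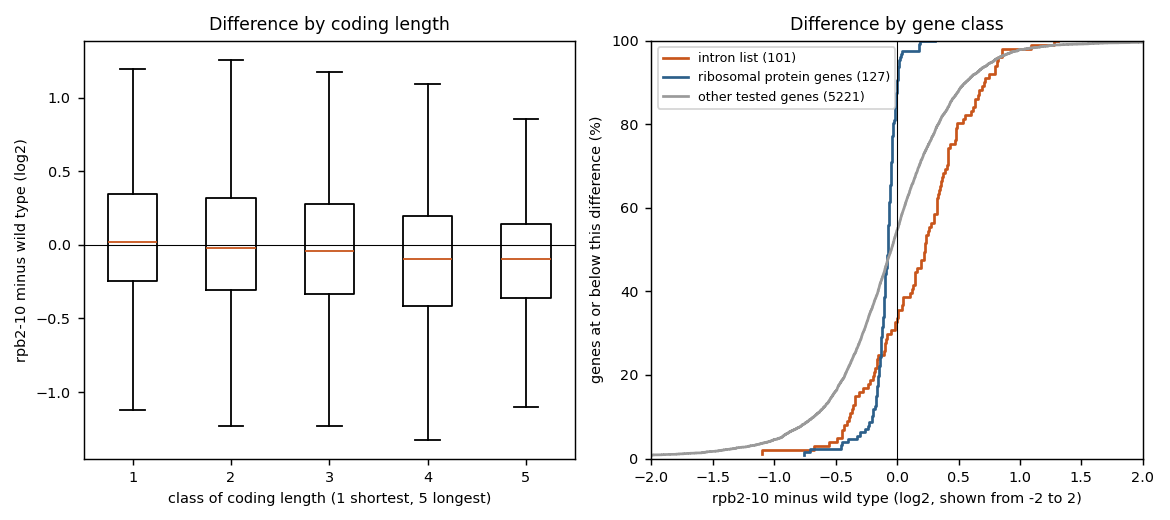
Left, differences (log2) by class of coding length (5 classes of about equal size), with boxes for the quartiles, orange lines for the medians and whiskers to 1.5 times the quartile range. Right, the share of genes at or below each difference, where the curve of the 101 intron genes lies to the right of the other genes over most of its length, with a median of 0.22.

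Carbon and energy genes were mixed. Of 23 glycolysis and fermentation genes, 8 were higher and 2 lower, with GLK1, a glucokinase, at 1.23 ± 0.08, PYK2, a pyruvate kinase, at 0.87 ± 0.07, and ENO1 and ADH5 at −0.61 ± 0.05 and −0.63 ± 0.06. Of 45 genes that glucose represses, 4 were higher and 24 lower, where 32.0% and 39.1% of all genes were. Their median was −0.26. Without the dimmest genes 2 were higher and 8 lower, with a median of −0.166. HXT5, a hexose transporter, and SIP4, an activator of gluconeogenesis genes, fell by 1.59 ± 0.10 and 1.76 ± 0.11, while ADR1, which activates genes for growth on ethanol, rose by 1.55 ± 0.14. The other 3 that rose were GAL3, GAL80 and ALD4 at 0.31 ± 0.06, 0.17 ± 0.05 and 0.36 ± 0.07. Of 53 respiration genes, 13 (24.5%) were higher and 21 (39.6%) lower, the second share near that of all genes. NDE2, a mitochondrial NADH dehydrogenase, fell by 1.41 ± 0.14, CIT2, the peroxisomal citrate synthase, by 1.39 ± 0.08, and CYC1, the main cytochrome c, by 0.91 ± 0.06. Of 26 hypoxic genes, 4 were higher and 17 lower, and the median was −0.50. Without the dimmest genes 7 were lower and the median was −0.168, and it was −0.291 after further quantile normalization and −0.322 without shared probes. The repressor ROX1 fell by 1.15 ± 0.04. Beside TIR2 and DAN1, the translation factor gene ANB1 rose by 0.51 ± 0.05 and HMG2, of sterol synthesis, by 0.68 ± 0.07. Ergosterol genes had 10 higher and 12 lower of 30.

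DNA-related lists had no strong common direction. Of 24 damage-inducible genes, 8 were higher and 12 lower, where 32.0% and 39.1% of all genes were, and the median was −0.14. HUG1, an inhibitor of ribonucleotide reductase, rose by 1.64 ± 0.06, and DDR48, given above, by 1.80. Of those that fell, DDI3, with shared probes, was at −2.77, and RAD16 is given next. Of 67 repair genes, 21 were higher and 27 lower. RAD16 and RAD7, which act together in nucleotide excision repair of untranscribed DNA, fell by 1.80 ± 0.08 and 1.45 ± 0.04, and MAG1, a DNA glycosylase, rose by 1.0 ± 0.07. Of 57 replication genes, 10 were higher and 22 lower, with MCM5 and MCM3 of the replicative helicase at −0.93 ± 0.07 and −0.79 ± 0.07. Beside IMD2, the nucleotide synthesis list had 13 higher and 15 lower, with HPT1, which salvages guanine, at −1.25 ± 0.07 and SDT1, a pyrimidine nucleotidase, at −1.03 ± 0.07.

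Mating and cell cycle genes included single large changes. Of the 7 a-specific genes, 3 were called higher and 1 lower, with ASG7 at 0.79 ± 0.08, STE2 at 0.55 ± 0.06, STE6, the exporter of a-factor, at 0.18 ± 0.07 and MFA2, a gene for a-factor, at −0.37 ± 0.08. Of the 5 alpha-specific genes, STE3, the a-factor receptor, rose by 1.60 ± 0.08, from 3.94, 3.97 and 3.97 to 5.72, 5.57 and 5.41, AFB1 fell by 0.32 ± 0.08, and the alpha-factor genes and SAG1 were not called. Of 38 pheromone response genes, 8 were higher and 19 lower, where 32.0% and 39.1% of all genes were. PRM9 and PRM8 rose by 1.70 ± 0.06 and 1.26 ± 0.08, PRM10 fell by 2.48 ± 0.12 and MSG5, a phosphatase of the pheromone kinases, by 1.12 ± 0.06. Of 24 genes on the cyclin list, which also holds genes that encode no cyclin, 5 were higher and 12 lower. CLN3 was at 8.03, 7.93 and 7.90 in WT1A and 6.54, 6.57 and 6.70 in rpb2-10, and fell by 1.35 ± 0.06. CLN2 and PCL1, which act in G1, fell by 0.98 ± 0.06 and 0.94 ± 0.05. The 5 that rose were PCL2, the kinase gene CDC28, CKS1, and the cyclin genes of transcription SSN8 and CCL1. They were at 0.34 ± 0.05, 0.19 ± 0.05, 0.14 ± 0.05, 0.17 ± 0.06 and 0.20 ± 0.05.

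Of 54 meiosis genes, 12 (22.2%) were higher and 20 (37.0%) lower, where 32.0% and 39.1% of all genes were. SPO19 was at 4.47, 4.38 and 4.67 in WT1A and at or under background on 2 of 3 rpb2-10 arrays, so the size of its fall was not measured. IME2, a kinase of early meiosis, fell by 1.48 ± 0.11, and SPS19, an enzyme of fatty acid breakdown, rose by 1.46 ± 0.06. Histone genes had 4 of 10 higher and 2 lower. HHO1, the linker histone, rose by 0.54 ± 0.07, HTB2, of histone H2B, by 0.49 ± 0.06, the H2A variant HTZ1 by 0.43 ± 0.06 and the centromeric histone CSE4 by 0.45 ± 0.07, and HTA1 and HTA2, genes of histone H2A, fell by 0.22 ± 0.05 and 0.14 ± 0.06, HTA2 with shared probes. Of 16 silencing genes 2 were higher and 9 lower, with SIR1 and SIR2 at −1.08 ± 0.08 and −0.79 ± 0.05, and HST3 and ESC1 higher at 0.76 ± 0.05 and 0.43 ± 0.05. Of 45 chromatin remodelling genes, 5 were higher and 18 lower, with SWI1 at −0.91 ± 0.07. The 5 that rose were SNF5, RSC9, SFH1, IES4 and IOC2, at 0.22 ± 0.06, 0.31 ± 0.05, 0.21 ± 0.05, 0.65 ± 0.05 and 0.14 ± 0.05. Of 31 autophagy genes, 12 were higher and 9 lower, with ATG40, a receptor for the endoplasmic reticulum, at 1.27 ± 0.07 and ATG39, a receptor for the nuclear envelope, at −1.07 ± 0.12. Of 14 subtelomeric genes, 3 were higher and 9 lower, and AAD10, which is like aryl-alcohol dehydrogenases, was at −1.27 ± 0.09. Those that rose were COS7, with shared probes, COS8 and COS9, at 0.24 ± 0.05, 0.45 ± 0.08 and 0.81 ± 0.06. The plot of gene lists orders them by their medians, with iron uptake and the proteasome at the upper end and nitrogen use and the marker genes at the lower.

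**Figure D5:**
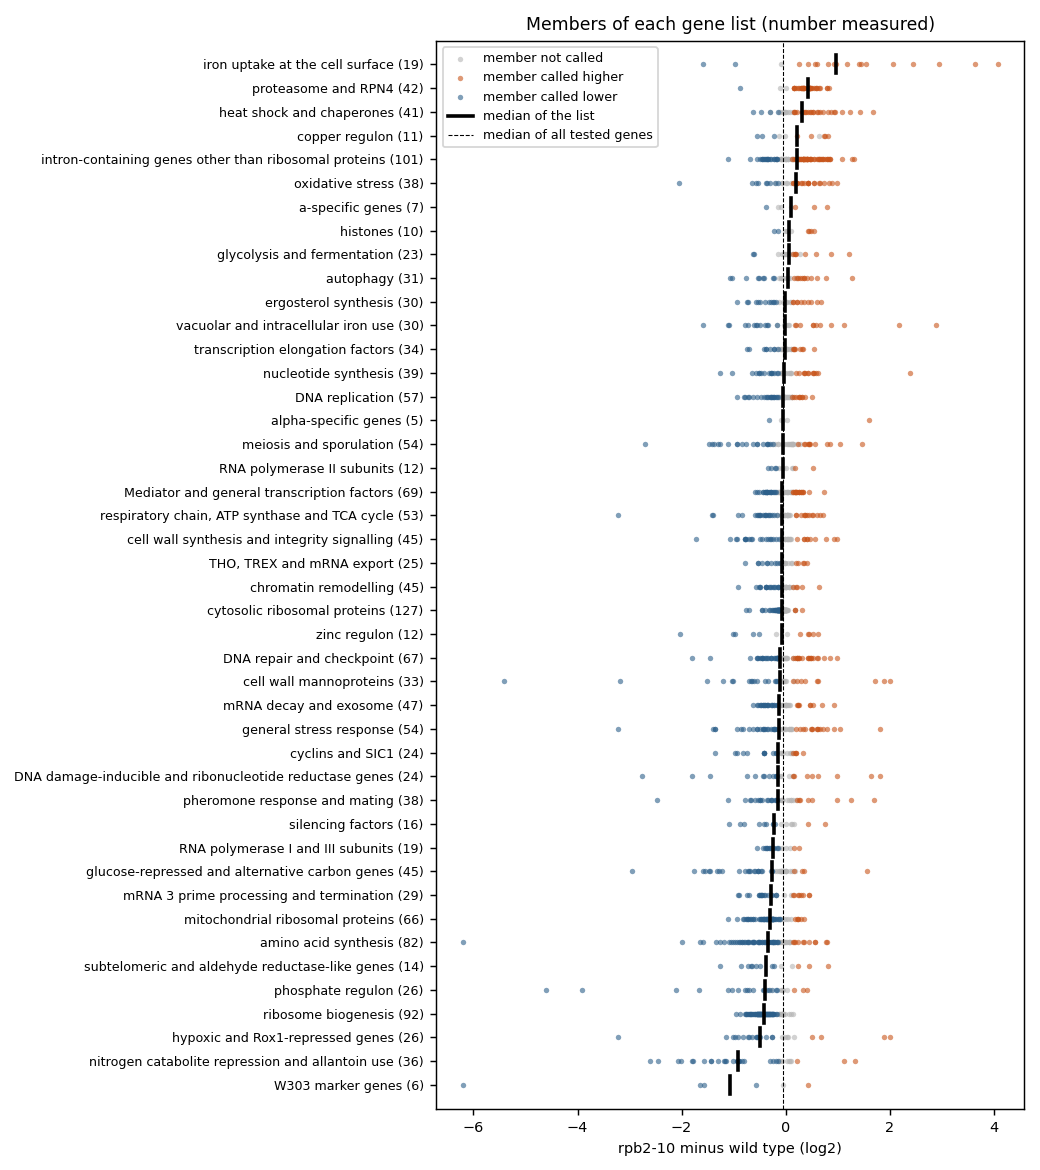
Differences (log2) of the members of 44 gene lists, coloured by call, with a black bar at the median of each list and a dashed line at the median of all tested genes (−0.05). Iron uptake has the highest median at 0.96 and the 6 W303 marker genes the lowest at −1.08, while without the dimmest genes, HIS3 among them, the marker median was −0.575 and that of nitrogen use −0.898.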

How the data were processed

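The deposited values are log2 levels per probe set and array. RMA and limma are named without versions in the submitters' processing notes. RMA corrects background, quantile-normalizes the arrays and summarises probes, so a change common to most genes cannot be seen. Per the labels, total RNA was column-purified and labelled as biotin cRNA in a single cycle. Probe sets were named from the platform annotation, with 12 symbols updated through a reference table of assembly R64. Of 10928 probe sets, 5498 named 1 S. cerevisiae gene, 1746 a gene of another species and 3683 none. The brightest probe set was kept for the 47 genes with more than 1. For 115 genes the identifier marks shared probes.

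From these values limma 3.58.1 in R 4.3.3 (lmFit, eBayes) was fitted to the 6 arrays, with 4 residual and 4.54 prior degrees of freedom. The fit was tested on simulated data. The 6 arrays were fitted without the other 9 because the replicate SD of those was higher, at 0.11 to 0.13. Coding lengths, from the reference table for 5446 genes, span introns. Where a group was at or under background on all 3 arrays, the fold is a bound, the mean of the other group against the higher of each array's background and the gene's own value.

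The members and gene lists were chosen with earlier results of these data known. The rule for named genes takes RPB2 and RPO21, the 15 highest and 15 lowest called genes with arrays apart, up to 4 called members per list, any member of the iron, phosphate, mannoprotein, marker, polymerase and elongation lists, and genes beside a called marker. Mating-type markers have a list of their own. Genes named because 5 or fewer of a list moved in 1 direction or were not called, and those of the closing section, were chosen after their values were seen. The number of arrays limits the precision.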

Additional observations from a re-analysis of the deposited data

Results flagged for a closer look

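Control probe sets outside the gene comparison differed between the groups. The poly-A controls were on average 0.476 higher in rpb2-10, with 36 of 36 detected probe sets higher and the 3 arrays of each group apart for 32 of them. By transcript the difference was 0.547 for dap, 0.461 for lys, 0.462 for phe and 0.433 for thr. The hybridization controls, at 0.157, overlapped between the groups. Their mean was 7.89, 7.87 and 7.51 on the rpb2-10 arrays and 7.55, 7.52 and 7.72 on the WT1A arrays. By transcript they differed by 0.234 for bioB, 0.274 for bioC, 0.096 for bioD and −0.015 for cre. The part of the amount of control RNA in the difference of the poly-A controls was not tested.

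Of 3470 probe sets with no gene name here, other than controls, 378 were above background. Among these, 12 were higher and 15 lower by at least 1 with arrays apart. The highest was 3.07 above WT1A, at 7.24, 7.0 and 7.04 in WT1A and 10.12, 10.11 and 10.27 in rpb2-10. Its gene was not analysed here.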

How the results depend on the processing

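Counts of genes called were 3049 without the dimmest genes, 3105 with all 15 arrays and 4050 with array weights, the other alternatives but the poly-A scaling, at 4492, lay between the last 2, and all were within 1.5 times of the 3877. Leaving out 1 array gave 3610 to 3783 calls. Same-numbered arrays did not pair, since their deviations from the group means correlated at −0.123, −0.017 and −0.242, and with the replicate block 3714 genes were called, 1675 higher and 2039 lower. The 352 calls of at least 1 became 198 with 113 lower, when the dimmest genes were left out and 4086 were tested. They became 167, with 49 higher and 118 lower, in limma's treat test against a difference of 1. Without 1 array they ran from 339 to 378. The alternative that scales to the poly-A controls was chosen after seeing the data, as was the second intron definition. It gave 364 genes higher and 4128 lower, and 835 of at least 1, with 43 higher and 792 lower, because it subtracts 0.476 from every difference.

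Each list median fell by the same amount. Of the medians of at least 0.2 in size, those of the copper, proteasome, chaperone and intron lists changed sign. The smaller positive medians of the oxidative stress, glycolysis, histone, a-specific and autophagy lists also turned negative. Iron uptake had 12 higher and 4 lower, median 0.482, intracellular iron 4 and 21, −0.495, copper regulon 3 and 6, −0.251, zinc regulon 0 and 7, −0.556, phosphate regulon 0 and 24, −0.864, cell wall mannoproteins 3 and 26, −0.594. Cell wall synthesis and integrity signalling had 3 higher and 36 lower, median −0.546, proteasome 3 and 10, −0.0478, RNA polymerase II subunits 0 and 11, −0.537, RNA polymerase I and III subunits 0 and 19, −0.727, transcription elongation factors 0 and 30, −0.499, THO, TREX and mRNA export 0 and 22, −0.548. mRNA 3′ processing and termination had 0 higher and 25 lower, median −0.75, nucleotide synthesis 1 and 28, −0.502, W303 marker genes 0 and 5, −1.55, cytosolic ribosomal proteins 0 and 126, −0.553, ribosome biogenesis 0 and 92, −0.891, mitochondrial ribosomal proteins 0 and 64, −0.78. Respiratory chain, ATP synthase and TCA cycle had 1 higher and 42 lower, median −0.545, glycolysis and fermentation 2 and 18, −0.416, glucose-repressed genes 1 and 42, −0.74, general stress response 5 and 39, −0.608, heat shock and chaperones 9 and 19, −0.154, oxidative stress 4 and 23, −0.287. Amino acid synthesis had 2 higher and 75 lower, median −0.807, nitrogen use 2 and 34, −1.39, ergosterol synthesis 0 and 24, −0.481, hypoxic genes 2 and 22, −0.974, damage-inducible genes 3 and 18, −0.618, DNA replication 0 and 52, −0.519. DNA repair and checkpoint had 3 higher and 53 lower, median −0.577, meiosis and sporulation 4 and 42, −0.531, a-specific genes 1 and 5, −0.371, alpha-specific genes 1 and 4, −0.526, pheromone response and mating 3 and 32, −0.631, histones 0 and 6, −0.414. Cyclins and SIC1 had 0 higher and 23 lower, median −0.615, intron genes 13 and 55, −0.252, subtelomeric genes 1 and 12, −0.848, autophagy 2 and 22, −0.439, silencing factors 1 and 14, −0.70, chromatin remodelling 0 and 43, −0.55. Mediator and general factors had 1 higher and 61 lower, median −0.544, mRNA decay and exosome 2 and 42, −0.598. Named genes that turned were CKS1 (−0.331), CDC28 (−0.285), SNF5 (−0.255), SUB2 (−0.241), PCL2 (−0.136), COS7 (−0.234), GAL3 (−0.171), RPS17B (−0.298), IZH1 (−0.193), FIT1 (−0.0457), URA3 (−0.0483), GEA2 (−0.268), DST1 (−0.339), SPT16 (−0.288), COS8 (−0.0232), RPB3 (−0.29), RPC17 (−0.219), PHO86 (−0.0573), RPL43B (−0.291), SOD1 (−0.251), CSE4 (−0.022), ELF1 (−0.159), STE6 (−0.291), YRA2 (−0.116), FRE2 (−0.217), IOC2 (−0.337), SFH1 (−0.269), SPT5 (−0.196), GAL80 (−0.308), RSC9 (−0.165), RPL15B (−0.171), ESC1 (−0.0453), ZRC1 (−0.0421), SSN8 (−0.306), TEX1 (−0.0645), RPC34 (−0.319), PHO91 (−0.315), HTZ1 (−0.0444), DBP5 (−0.281), CDC31 (−0.135), ALD4 (−0.12), PHO85 (−0.15), CAR1 (−0.261), CCL1 (−0.273) and ISA2 (−0.199). Under the other alternatives no named gene changed sign while called, and none of the list medians of at least 0.2 in size did. The promoter motif comparison was not run, since no promoter table was used here. With 3 arrays per group, no difference below 0.117 was called.

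The counts of list members that moved by over 1.5 times, and the medians that moved by more than the replicate SD, are given next, and the cause was not tested except that fewer genes are tested without the dimmest or the shared. With all 15 arrays, members called higher became 1 (RNA polymerase II subunits), 0 (RNA polymerase I and III subunits), 5 (transcription elongation factors), 1 (cytosolic ribosomal proteins), 2 (glucose-repressed genes), 10 (general stress response), 5 (DNA replication), 3 (cyclins and SIC1), 7 (autophagy) and 3 (chromatin remodelling). With all 15 arrays, members called lower became 6 (RNA polymerase I and III subunits), 18 (cytosolic ribosomal proteins), 44 (ribosome biogenesis), 14 (general stress response), 1 (heat shock and chaperones) and 1 (histones). With the replicate block, members called higher became 1 (RNA polymerase I and III subunits) and 5 (transcription elongation factors). With the replicate block, members called lower became 19 (cytosolic ribosomal proteins) and 1 (histones). After median centring, members called higher became 4 (RNA polymerase II subunits), 3 (ribosome biogenesis), 5 (nitrogen use), 5 (silencing factors) and 8 (chromatin remodelling). After median centring, members called lower became 12 (cytosolic ribosomal proteins), 2 (heat shock and chaperones) and 1 (histones). After further quantile normalization, members called higher became 7 (glucose-repressed genes), 24 (meiosis and sporulation), 2 (alpha-specific genes), 14 (pheromone response and mating) and 7 (silencing factors). After further quantile normalization, members called lower became 2 (proteasome), 0 (alpha-specific genes) and 1 (histones). After further quantile normalization, the median became 0.359 (proteasome), −0.186 (glucose-repressed genes), 0.064 (general stress response), −0.291 (hypoxic genes), 0.0447 (DNA repair and checkpoint), 0.147 (meiosis and sporulation), 0.0103 (a-specific genes), 0.0499 (alpha-specific genes), −0.0357 (pheromone response and mating), 0.17 (autophagy), −0.0342 (silencing factors) and 0.0337 (Mediator and general factors). Without the dimmest genes, members called higher became 1 (ribosome biogenesis), 2 (glucose-repressed genes), 4 (damage-inducible genes), 10 (DNA repair and checkpoint), 1 (meiosis and sporulation), 0 (alpha-specific genes), 5 (pheromone response and mating), 3 (cyclins and SIC1) and 5 (autophagy). Without the dimmest genes, members called lower became 10 (cell wall mannoproteins), 8 (glucose-repressed genes), 10 (general stress response), 7 (hypoxic genes), 7 (damage-inducible genes), 16 (DNA repair and checkpoint), 1 (meiosis and sporulation), 0 (alpha-specific genes), 5 (subtelomeric genes) and 1 (autophagy). Without the dimmest genes, the median became 1.07 (iron uptake), −0.0917 (intracellular iron), 0.352 (copper regulon), 0.028 (zinc regulon), −0.575 (W303 marker genes), −0.166 (glucose-repressed genes), 0.0927 (general stress response), −0.168 (hypoxic genes), 0.0788 (meiosis and sporulation), 0.0103 (a-specific genes), −0.22 (subtelomeric genes), 0.13 (autophagy) and −0.0822 (silencing factors). Without genes at the level of another species, the median became −0.488 (subtelomeric genes). Without shared probes, members called lower became 1 (histones). Without shared probes, the median became 0.106 (copper regulon), −0.322 (hypoxic genes), 0.268 (histones) and −0.656 (subtelomeric genes). With the mean of probe sets, members called lower became 1 (histones). With a trend and robust prior, members called higher became 1 (ribosome biogenesis). With a trend and robust prior, members called lower became 62 (cytosolic ribosomal proteins). With array weights, members called lower became 1 (histones). Leaving out 1 array in turn, members called higher ran from 1 to 2 (RNA polymerase I and III subunits), from 4 to 9 (transcription elongation factors), from 0 to 1 (ribosome biogenesis) and from 3 to 5 (cyclins and SIC1). Leaving out 1 array in turn, members called lower ran from 16 to 30 (cytosolic ribosomal proteins), from 2 to 4 (heat shock and chaperones), from 1 to 2 (histones) and from 1 to 2 (a-specific genes). Leaving out 1 array in turn, medians ran from −0.0793 to 0.0183 (alpha-specific genes), from 0.0104 to 0.178 (a-specific genes) and from 0.932 to 1.02 (iron uptake).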

Other observations

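Neighbouring genes with large differences were mostly on the same side. Among adjacent tested genes, 33 pairs were both called with a difference of at least 1, and 29 of them went in the same direction. Of all 352 genes called by at least 1, 115 were higher and 237 lower. Some pairs in the same direction would therefore also occur in other orders of the genes, and how many was not tested. The 29 pairs formed 25 runs of 54 genes, 5 runs higher and 20 lower. The iron-uptake genes FIT2, FIT3 and FRE5 formed 1 run, with FIT2 and FIT3 at 4.07 and 2.94, and FRE5, at or under background in WT1A, higher by at least 2.58-fold. YPL278C, YPL277C and SAM3, which encodes the S-adenosylmethionine permease, were at 3.56, 3.58 and 1.12, the first 2 with shared probes. AQY2 and its neighbour YLL053C were at 2.26 and 1.97.

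Among the lower runs, PRM10, YJL107C and IME2 were at −2.48, −2.03 and −1.48, and the neighbours MRM1, HIS3 and DED1 at −1.79, −6.20 and −1.41. The Pir genes PIR1 and PIR3 were at −1.52 and −3.19, UTR2 and CYC7 at −1.03 and −3.23, and the allantoin genes DAL4 and DAL2 at −1.57 and −1.01. These runs were chosen after their values were seen and were not tested against other orders of the genes.

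Genes near chromosome ends were called at any size in shares near those of other genes, while differences of at least 1 were more frequent among them. Of the 526 genes among the last 20 of an end, 30.6% were called higher and 41.6% lower, beside 32.2% and 38.9% of the other 4920 coding genes. By at least 1, 22 of the 526 were higher and 39 lower, beside 93 and 198 of the 4920. The cause was not tested.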
